A study of Mus musculus with 6 samples.

Results

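The genes described here encode 10 enzymes that make, recycle or phosphorylate nicotinamide adenine dinucleotide (NAD) in the mouse testis: Nmnat1, Nmnat2, Nmnat3, Nampt, Naprt, Nadsyn1, Nmrk1, Qprt, Nadk and Nnt. They were taken by gene symbol from a table of 45777 genes, and all 10 symbols were found. Total RNA of testes from wild-type (WT) mice was sequenced from 3 libraries of ethanol-fed and 3 libraries of control-fed mice, each after 16 weeks of administration. Both diets were LDC liquid diets of 10 ml per head and day, and acclimatization on the control diet had lasted 5 days. The sources used here do not give the strain or the age of the mice, nor whether each library came from its own animal, so the spread between libraries may be technical. The set was chosen by pathway and selected on measured values of the same diet comparison, in which the small p of Nmnat3 was already known. Their diet differences are therefore given as a description, and the adjusted p-values beside them, from edgeR's quasi-likelihood test over all 25073 tested genes, lend no independent support.

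NAD carries electrons between enzymes, and it is also consumed as a substrate by sirtuins, poly(ADP-ribose) polymerases and NAD glycohydrolases, so that cells rebuild it constantly. Nampt turns nicotinamide into nicotinamide mononucleotide (NMN), and Nmrk1 makes NMN from nicotinamide riboside. The adenylyl transferases Nmnat1, Nmnat2 and Nmnat3 join NMN to an adenylyl group and so complete NAD, in the nucleus, in the cytosol and at the Golgi, and in mitochondria, in that order. Naprt starts from nicotinic acid and Qprt from quinolinate, a product of tryptophan breakdown, and both routes end with Nadsyn1, which adds the amide group. Nadk phosphorylates NAD to NADP, and Nnt uses the mitochondrial proton gradient to form NADPH from NADH. Alcohol and aldehyde dehydrogenases reduce NAD to NADH when they oxidize ethanol, which makes the NAD supply of an ethanol-exposed tissue a question of interest.

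The sequences around the transcription start of 4 of these genes are shown because Nmnat3, Nampt and Nmrk1 were the members whose ethanol libraries all lay above the control libraries, while Nmnat1 is the nuclear relative of Nmnat3 with overlapping diets. Each window runs from 250 bases before the annotated start to 50 bases after it, 5′ to 3′ on the strand of the gene, from RefSeq on GRCm38.p6. Capitals mark each GC box, searched as GGGCGG on both strands.
Nmnat3, chr9:98296320-98296619, plus strand: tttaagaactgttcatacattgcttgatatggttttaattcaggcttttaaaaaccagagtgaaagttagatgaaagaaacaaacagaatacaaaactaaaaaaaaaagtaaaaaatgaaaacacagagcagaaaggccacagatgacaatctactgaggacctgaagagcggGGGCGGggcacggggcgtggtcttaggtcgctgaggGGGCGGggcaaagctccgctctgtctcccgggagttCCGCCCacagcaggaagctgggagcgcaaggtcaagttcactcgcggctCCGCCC
Nampt, chr12:32820085-32820384, plus strand: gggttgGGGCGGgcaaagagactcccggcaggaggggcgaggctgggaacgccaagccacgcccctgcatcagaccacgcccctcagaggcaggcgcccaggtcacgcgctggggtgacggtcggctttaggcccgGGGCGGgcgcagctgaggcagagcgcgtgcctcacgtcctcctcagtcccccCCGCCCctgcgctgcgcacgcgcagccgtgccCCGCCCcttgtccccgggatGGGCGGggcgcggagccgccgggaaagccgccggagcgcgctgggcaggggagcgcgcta
Nmrk1, chr19:18631766-18632065, plus strand: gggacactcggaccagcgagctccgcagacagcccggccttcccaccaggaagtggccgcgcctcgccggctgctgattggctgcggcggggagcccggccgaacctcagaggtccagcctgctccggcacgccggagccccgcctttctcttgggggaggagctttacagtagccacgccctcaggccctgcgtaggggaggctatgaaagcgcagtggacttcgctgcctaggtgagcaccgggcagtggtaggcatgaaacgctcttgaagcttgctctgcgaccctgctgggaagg
Nmnat1, chr4:149485161-149485460, minus strand: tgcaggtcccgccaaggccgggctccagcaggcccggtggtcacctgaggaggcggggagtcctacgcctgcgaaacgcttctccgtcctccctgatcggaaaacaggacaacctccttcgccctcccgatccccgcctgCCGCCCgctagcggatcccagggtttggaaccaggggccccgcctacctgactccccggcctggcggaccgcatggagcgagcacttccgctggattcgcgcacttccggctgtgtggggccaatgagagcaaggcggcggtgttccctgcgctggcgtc

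The windows of the 4 genes differed in composition. That of Nmnat3 had a GC content of 49.0%, under the median of 52.7% over 32851 windows of the same length. Its 4 GC boxes all lay toward the 3′ end of the window, most of them before or across the annotated start. A window with at least 4 GC boxes was found at 5.49% of annotated starts. The window of Nampt had a GC content of 76.3% and 5 GC boxes, a number reached by 2.71% of starts. The window of Nmrk1 had a GC content of 67.3% and 0 GC boxes, and the printed window of Nmnat1 69.0% and 1, where 35.7% of starts have at least 1. Another annotated start of Nmnat1, not printed, had a window with 67.7% and 1 GC box. The E-box CACGTG, found at 7.15% of starts, and the TATA box TATAAA, found at 13.6%, matched in 0 of these 4 windows on either strand. The pattern TGACNNNGC, the core of the antioxidant response element, matched 1 time in the window of Nmnat3 and in 12.4% of all windows. These matches are letters in a window and were not tied to binding or to the diet. Windows were held for 8 of the 10 genes. Naprt and Nnt had none in the table used.

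Total counts ranged from 38935654 to 47420249 per library. The libraries carried testis markers: the summed level of 5 genes of elongating spermatids, such as the protamine Prm2, lay between 40700 and 47500 TPM, a transcript level scaled for gene length and library size. Ethanol library 1 stood apart in the sum of 4 adipocyte markers, at 81.6 TPM. The sum was 31.0 and 25.2 TPM in ethanol libraries 2 and 3 and 16.8 to 27.4 TPM in control libraries. Adipoq lay between 15.1 and 22.1 TPM over all libraries. The excess was mainly in Cfd and Fabp4, at 27.6 and 30.3 TPM in ethanol library 1. The diet differences of Nmnat3, Nampt and Nmrk1 are therefore also given without that library.

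Among the 10 genes, levels per length spanned from Nnt, at 45.5 to 57.8 TPM over the 6 libraries, to Qprt, at 0 to 0.172 TPM. The order of the mean TPM over both diets was Nnt, Nmnat3, Nadk, Nmnat1, Nampt, Nadsyn1, Nmrk1, Naprt, Nmnat2 and Qprt. The ranges of neighbours overlapped for Nnt and Nmnat3, for Nmnat3 and Nadk, and for Nampt and Nadsyn1, and were apart for the other 6 pairs. Nmnat3 was above Nadk in the 3 ethanol libraries and below it in the 3 control libraries, so that it ranked 2 with ethanol and 3 in controls, the single change of order between the diets.

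**Figure D1:**
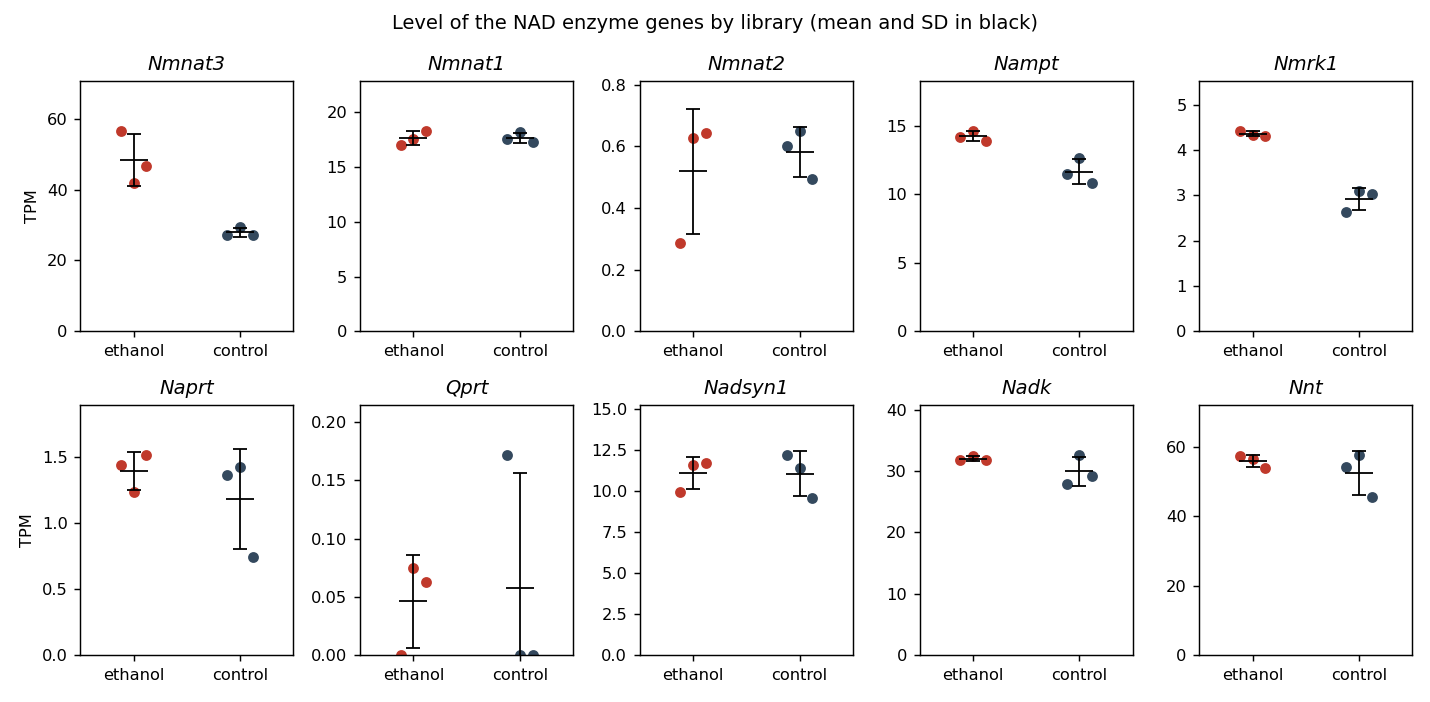
Level of each of the 10 genes in TPM (vertical axes, from 0, a scale per gene) in the 3 ethanol-fed and 3 control-fed libraries (points), with the mean and SD in black, bars ending at 0 where they would pass below it. The ethanol points lie above all control points for Nmnat3, Nampt and Nmrk1, and the diets overlap for the other 7 genes.

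In the comparison of diets, 6 of the 9 tested genes had a log2 fold change, ethanol over control, above 0 and 3 below 0, with a median of 0.051 beside 0.0065 over all tested genes. Qprt had too few reads to be tested. Of the 9 genes, 0 passed an edgeR adjusted p of 0.05, as did 0% of all tested genes. At an unadjusted p under 0.05 there were 3 of the 9, all higher with ethanol, where 7.45% of all tested genes were called higher at that level, 5.89% lower and 13.3% in either direction. Among the 9, 3 had every ethanol library above every control library in CPM, the count scaled to library size, and 0 the reverse, against 9.76% and 9.01% of all tested genes. Since the choice of genes drew on this comparison, nothing is read from these shares. At an adjusted p of 0.05, DESeq2 and limma-voom each called 1 of these genes, Nmnat3, as higher. DESeq2, which gave Naprt and Nmnat2 no adjusted p, called 1.81% of 18265 genes, with 1.11% higher, and limma-voom called 0.0199% of all tested genes, with 0.012% higher.

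**Figure D2:**
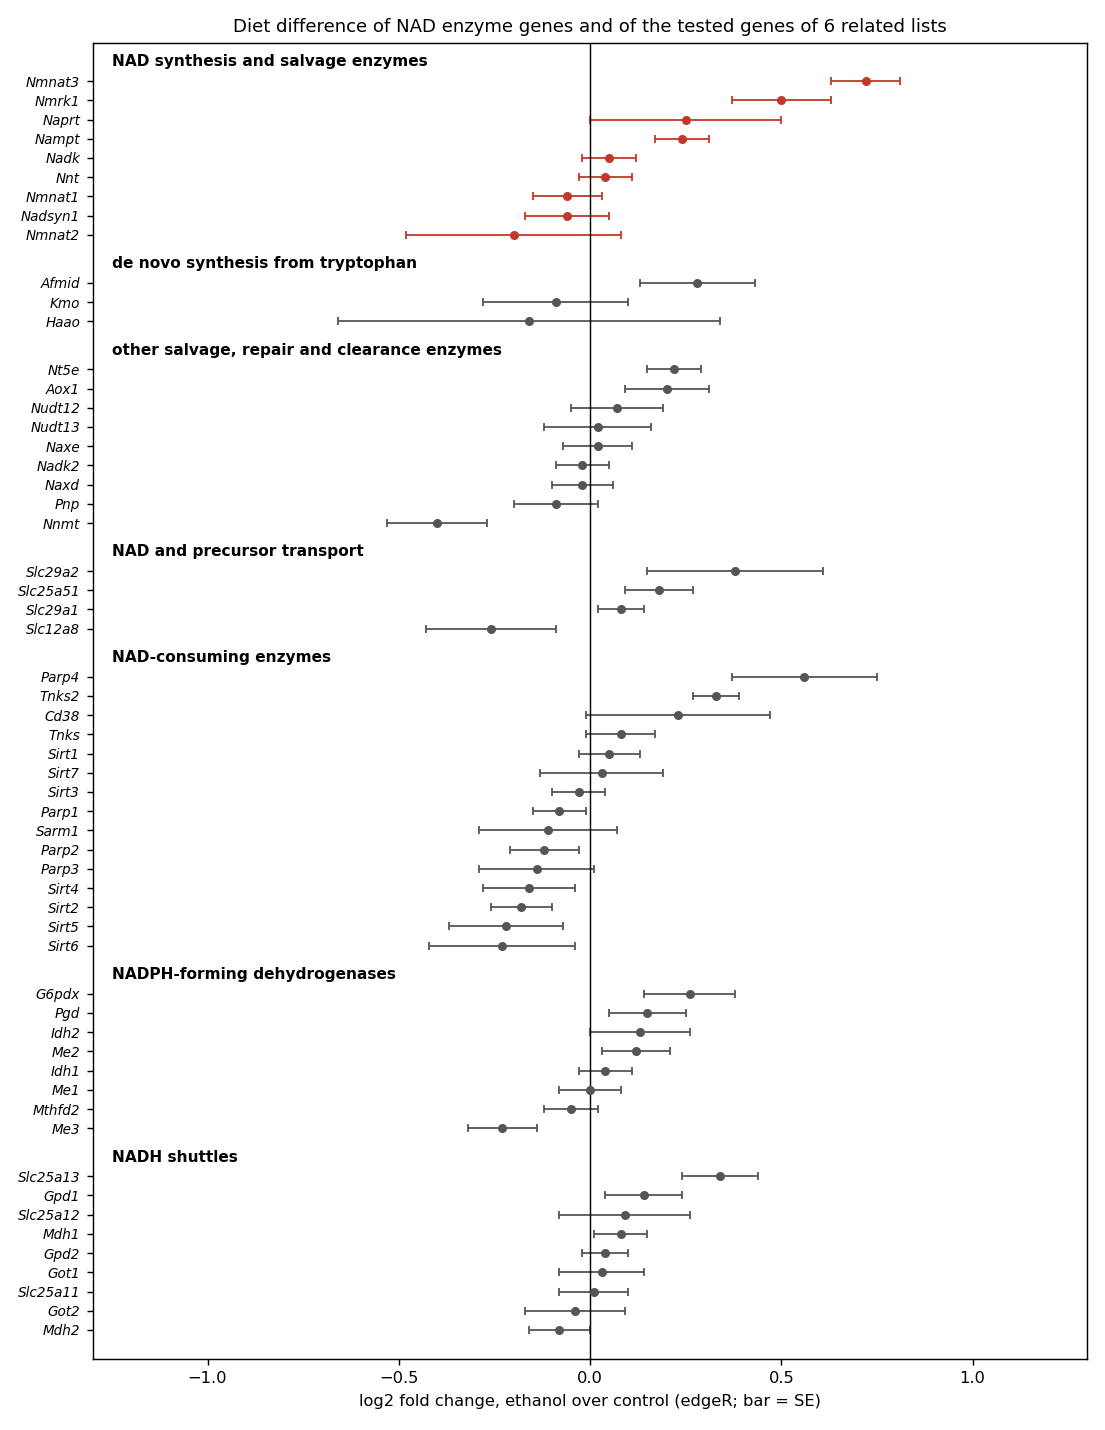
Log2 fold change, ethanol over control (horizontal axis; bars show the SE), by edgeR for the 9 tested NAD synthesis and salvage genes (red) and for the tested genes of 6 lists around NAD (grey). Nmnat3 at 0.72, Nmrk1 at 0.50 and Nampt at 0.24 stand on the right, while Nmnat1 and Nadsyn1, both at -0.06, lie close to 0.

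Of the adenylyl transferases, the mitochondrial Nmnat3 was higher in ethanol-fed testes, whereas the nuclear Nmnat1 and the Golgi-associated Nmnat2 overlapped between the diets. Nmnat3 (Gene ID 74080, spanning bases 98287433 to 98420533 of mm10 chromosome 9) stood at 53.3, 41.8 and 48.9 CPM in ethanol libraries 1, 2 and 3, against 28.6, 28.9 and 29.7 CPM in control libraries 1, 2 and 3. The lowest ethanol library lay well above the highest control library, and the ethanol libraries spread more, with an SD of 5.80 CPM against 0.536 CPM in controls (n = 3 each). Its fold change was 1.65, a log2 fold change of 0.72 ± 0.09 (SE; adjusted p = 0.0515, edgeR), just short of the threshold, and larger in size than that of 96.8% of tested genes. Without ethanol library 1, the highest one, the log2 fold change was 0.64 (edgeR adjusted p = 0.0799). Without ethanol library 2 it was 0.81 and passed (edgeR adjusted p = 0.0262).

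**Figure D3:**
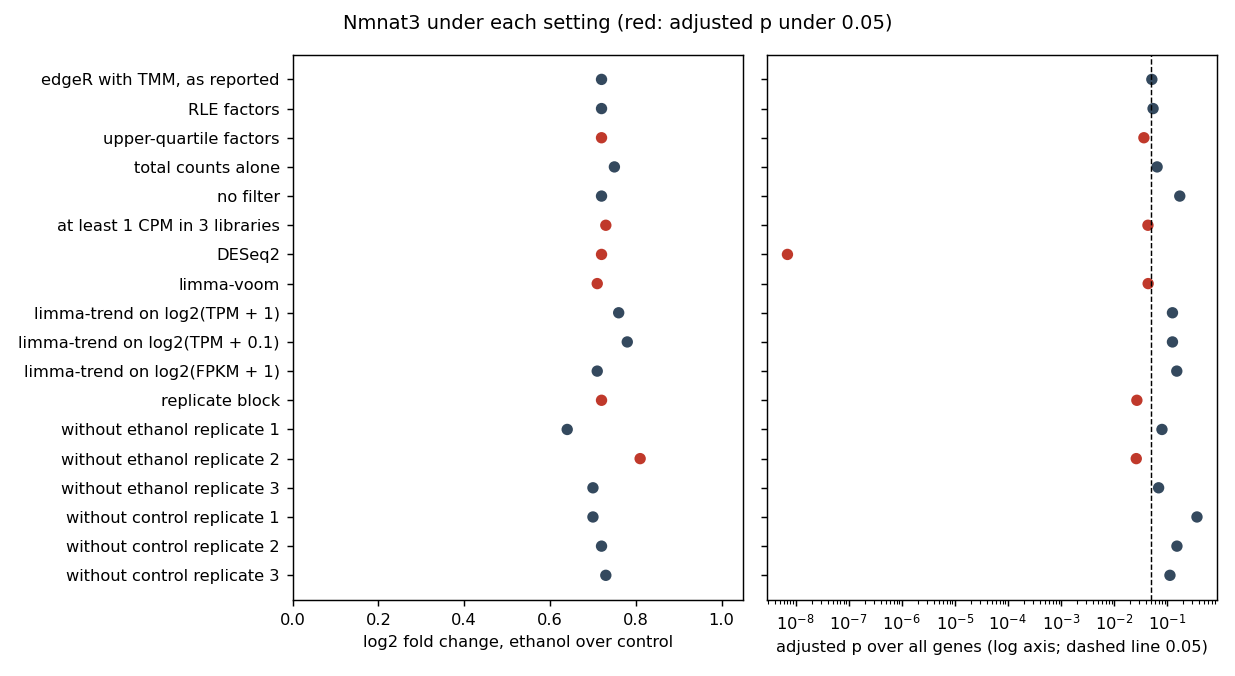
Log2 fold change of Nmnat3, ethanol over control (left, from 0), and its adjusted p over all genes (right, log axis, dashed line at 0.05) under each processing setting, a point per setting with no error bar. All points on the left lie between 0.64 and 0.81, while those on the right fall on both sides of 0.05, from 7.01e-09 with DESeq2 to 0.365 without control library 1.

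Nmnat1 (Gene ID 66454; chromosome 4, 149467569 to 149485210) was at 18.8, 20.1 and 22.3 CPM with ethanol and 21.3, 20.6 and 21.8 CPM in controls. The control libraries fell inside the ethanol range, and the log2 fold change was -0.06 ± 0.09 (SE; adjusted p = 0.821, edgeR). Nmnat2 (Gene ID 226518; chromosome 1, 152954781 to 153119266), best known as the axon survival enzyme of neurons, was scarce, at 0.680, 1.42 and 1.54 CPM with ethanol and 1.35, 1.51 and 1.32 CPM in controls. Ethanol library 1 alone was low, with 27 reads, while the other 5 libraries held 56 to 67. Its log2 fold change of -0.20 ± 0.28 (SE; adjusted p = 0.810, edgeR) turned to 0.08 without that library.

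On the TPM scale, the 3 adenylyl transferases together stood at 73.9, 60.2 and 65.7 TPM with ethanol, against 45.5, 48.3 and 45.0 TPM in controls. Nmnat3 was the most abundant of them in every library. It made up 72.5 ± 3.59% of the sum in ethanol libraries and 60.5 ± 0.551% in control libraries (SD, n = 3 each), while the share of Nmnat1 was 26.7 ± 3.25% with ethanol and 38.3 ± 0.557% in controls. The ratio of Nmnat3 to Nmnat1, taken within each library, was 3.32, 2.39 and 2.56 with ethanol and 1.55, 1.62 and 1.58 in controls. As both genes are read in the same library, this ratio does not depend on the scaling between libraries. In whole-tissue RNA, a change in the number of cells of a type and a change in RNA per cell cannot be told apart.

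**Figure D4:**
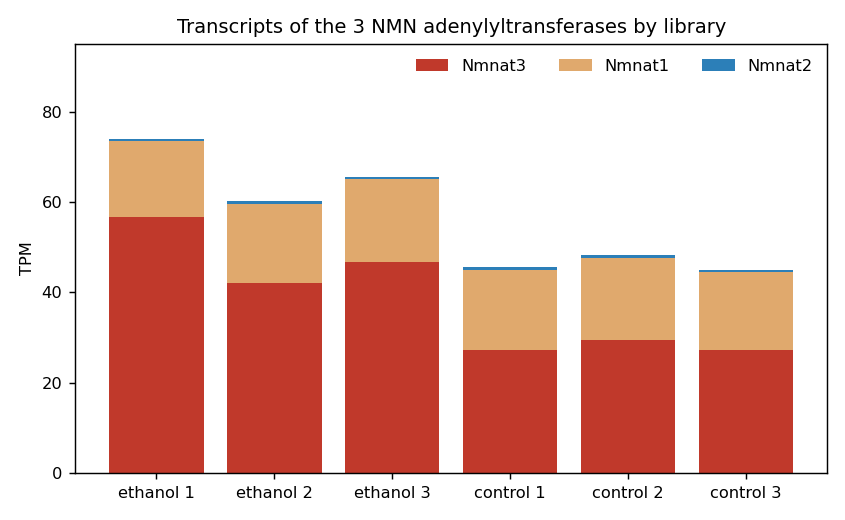
Stacked TPM (vertical axis) of Nmnat3, Nmnat1 and Nmnat2 in each library (horizontal axis; no error bars, since each bar is a single library). The red Nmnat3 part is taller in the 3 ethanol libraries, while the Nmnat1 part stays between 17.0 and 18.3 TPM in all 6.

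RefSeq places 2 other genes inside the span of Nmnat3, named here after their values were seen. The span also begins upstream of the start whose window is printed above. The pseudogene Gm28530 (98300127 to 98304223), on the same strand, was at 10.4, 6.88 and 4.95 CPM with ethanol and 3.83, 5.21 and 3.60 CPM in controls, with overlap, a log2 fold change of 0.82 ± 0.24 (SE; adjusted p = 0.195, edgeR), and 0.49 without ethanol library 1. It held 19.6, 16.5 and 10.1 reads per 100 of Nmnat3 in ethanol libraries and 13.4, 18.0 and 12.1 in control libraries. The noncoding Gm46126 had at most 19 reads in a library.

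Dividing the deposited count by the deposited FPKM and the library total gives the transcript length that the authors' values imply, which does not depend on the level of the gene. For Nmnat3 it was 2.15, 2.17 and 2.15 kb with ethanol and 2.16, 2.18 and 2.18 kb in controls (n = 3, exact two-sided permutation p = 0.2, where 0.1 is the smallest p that this design allows). The ratio of mean lengths, ethanol over control, lay between 0.982 for Nmrk1 and 1.03 for Naprt over the 9 genes, inside the range of 0.968 to 1.04 that holds the middle 90% of 20885 genes. Exact permutation p-values of the 9 comparisons ran from 0.2 to 0.9, each 0.9 after Benjamini-Hochberg adjustment. A shift between isoforms of like length would not be seen by this measure.

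Both enzymes that make NMN were higher in the ethanol libraries by less than Nmnat3, and neither passed the test over all genes. Nampt (Gene ID 59027; chromosome 12, 32820335 to 32853369), the rate-limiting enzyme of nicotinamide salvage, was at 31.4, 33.9 and 34.3 CPM with ethanol and 28.2, 28.7 and 27.5 CPM in controls. The groups did not overlap, and the fold change was 1.18, a log2 fold change of 0.24 ± 0.07 (SE; adjusted p = 0.209, edgeR). Nmrk1 (Gene ID 225994; chromosome 19, 18632016 to 18652428), nicotinamide riboside kinase 1, was at 4.53, 4.78 and 4.92 CPM with ethanol and 3.10, 3.36 and 3.65 CPM in controls. Here too the groups were apart, and the fold change was 1.41, a log2 fold change of 0.50 ± 0.13 (SE; adjusted p = 0.175, edgeR). The values without ethanol library 1 were 0.27 for Nampt and 0.53 for Nmrk1. Per length, Nampt remained the more abundant of the pair, with 3.28 ± 0.0896 times the TPM of Nmrk1 in ethanol libraries and 4.02 ± 0.402 times in control libraries (SD, n = 3 each).

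The enzymes of the nicotinic acid and tryptophan routes were low or overlapped between the diets. Naprt (Gene ID 223646; chromosome 15, 75890963 to 75894481), which takes up nicotinic acid into the pathway, was at 1.33, 1.21 and 1.56 CPM with ethanol and 1.41, 1.24 and 0.800 CPM in controls, a log2 fold change of 0.25 ± 0.25 (SE; adjusted p = 0.718, edgeR). Control library 3 was the low one. Without 1 library the log2 fold change ran from 0.04, without control library 3, to 0.41, without control library 1. In GENCODE M21 the span of Naprt touches that of Eef1d, a translation elongation factor gene on the same strand, which reached 627 TPM in a library. In RefSeq the spans are apart, with Naprt ending at base 75894481 and Eef1d beginning at 75894796. As the annotation used for counting is not named, the small count of Naprt is uncertain. Qprt (Gene ID 67375; chromosome 7, 127107770 to 127122029) had 0, 2 and 2 reads in ethanol libraries and 6, 0 and 0 reads in control libraries. A count of 0 allows up to 3 reads, which is 0.0755 CPM in ethanol library 1, 0.0676 CPM in control library 2 and 0.0706 CPM in control library 3, counting error only, so that a difference was not detectable at this depth. Nadsyn1 (Gene ID 78914; chromosome 7, 143795589 to 143822862), the last enzyme of both routes, was at 12.5, 15.3 and 15.8 CPM with ethanol and 16.7, 14.9 and 13.9 CPM in controls. Its log2 fold change of -0.06 ± 0.11 (SE; adjusted p = 0.863, edgeR) turned to 0.03 without ethanol library 1, to 0.01 without control library 1 and to 0.01 on log2(TPM + 1).

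The enzymes that turn NAD into NADP and NADPH were abundant and overlapped between the diets. Nadk (Gene ID 192185; chromosome 4, 155562381 to 155591001), the cytosolic NAD kinase, was at 47.2, 50.8 and 53.2 CPM with ethanol and 46.0, 50.2 and 49.7 CPM in controls, a log2 fold change of 0.05 ± 0.07 (SE; adjusted p = 0.807, edgeR). Nnt (Gene ID 18115; chromosome 13, 119335527 to 119409257), the transhydrogenase of the inner mitochondrial membrane, was at 101, 105 and 107 CPM with ethanol and 106, 105 and 92.7 CPM in controls. Control library 3 was the low one, and the log2 fold change of 0.04 ± 0.07 (SE; adjusted p = 0.836, edgeR) was -0.02 without it. The substrain C57BL/6J is known to carry a deletion within Nnt, and counts summed over the gene do not show whether these mice carry it.

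Around these enzymes, 6 lists of genes of NAD formation, transport and use held 48 tested genes, of which 0 passed an edgeR adjusted p of 0.05. At an unadjusted p under 0.05 there were 4 higher and 3 lower of the 48, beside 7.45% and 5.89% of all tested genes. The list of de novo synthesis from tryptophan had few reads: Tdo2, Ido1, Ido2, Kynu and Acmsd, which include the enzymes that open the route, had too few reads to be tested, as had Qprt. Its tested members were Afmid, Kmo and Haao, with 1 above 0, 2 below 0 and a median of -0.09. Afmid, the formamidase of the route, was the most abundant at a mean of 3.43 TPM, with a log2 fold change of 0.28 ± 0.15 (SE; adjusted p = 0.460, edgeR), which was 0.12 without ethanol library 3.

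Among other enzymes of salvage, repair and clearance, 5 of 9 tested members were above 0 and 4 below, with a median of 0.02. Nnmt, which methylates nicotinamide and so removes it from salvage, was at 3.53, 3.75 and 4.09 CPM with ethanol and 4.60, 4.96 and 5.41 CPM in controls. The groups were apart, with ethanol lower, and the log2 fold change was -0.40 ± 0.13 (SE; adjusted p = 0.242, edgeR). Nt5e (CD73), the cell-surface enzyme that converts NMN to nicotinamide riboside outside cells, was at 24.8, 24.7 and 26.2 CPM with ethanol and 22.3, 21.3 and 21.6 CPM in controls, a log2 fold change of 0.22 ± 0.07 (SE; adjusted p = 0.249, edgeR). Nmrk2, the kinase akin to Nmrk1, had 0, 4 and 0 reads in ethanol libraries and 0 in each control library. In the list of NAD and precursor transport, 3 of 4 tested members were above 0 with a median of 0.13, and Slc29a1, an equilibrative nucleoside transporter and the most abundant member, had a log2 fold change of 0.08 ± 0.06 (SE; adjusted p = 0.632, edgeR).

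Of the 15 tested NAD-consuming enzymes, 6 were above 0 and 9 below, with a median of -0.08. Tnks2 (tankyrase 2), which attaches ADP-ribose to proteins such as axin, had the smallest p of the list, at 84.3, 81.9 and 85.9 CPM with ethanol and 64.1, 70.9 and 65.8 CPM in controls. Its ethanol libraries were close together and above all controls, with a log2 fold change of 0.33 ± 0.06 (SE; adjusted p = 0.145, edgeR, and adjusted p = 0.00638 by DESeq2). Parp4, the ADP-ribosyltransferase of vault particles, was at 7.43, 6.06 and 5.02 CPM with ethanol and 3.18, 5.16 and 4.19 CPM in controls, overlapping, with a log2 fold change of 0.56 ± 0.19 (SE; adjusted p = 0.242, edgeR) and 0.41 without ethanol library 1. Sirt2, a mainly cytosolic deacetylase, overlapped between the diets, with a log2 fold change of -0.18 ± 0.08 (SE; adjusted p = 0.360, edgeR). Without 1 library it ran from -0.13, without ethanol library 2, to -0.29, without ethanol library 3. The NAD glycohydrolases Cd38 and Sarm1 were low, with means of 0.624 and 0.503 TPM.

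In the list of dehydrogenases that form NADPH beside Nnt, 5 of 8 tested members were above 0 with a median of 0.08. The list also holds Me2, at 0.12, and Mthfd2, at -0.05, which mainly use NAD. Me3, the mitochondrial NADP-dependent malic enzyme, was at 13.6, 15.3 and 13.7 CPM with ethanol and 16.8, 15.5 and 17.6 CPM in controls, a log2 fold change of -0.23 ± 0.09 (SE; adjusted p = 0.324, edgeR). For the shuttles that carry NADH equivalents into mitochondria, 7 of 9 tested members were above 0 with a median of 0.04. Slc25a13, the aspartate-glutamate carrier citrin, was at 10.9, 11.6 and 11.7 CPM with ethanol and 9.43, 9.31 and 8.28 CPM in controls, a log2 fold change of 0.34 ± 0.10 (SE; adjusted p = 0.209, edgeR).

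The genes whose profile was most like that of Nmnat3 were sought by the root mean square difference in log2(CPM + 0.5) centred over the 6 libraries. The search took in 11058 genes averaging 5 CPM or more, and predicted genes are not named. They were Alas2, at a difference of 0.0889, Serpina3a at 0.106, Ptgr1 at 0.127, Arhgef37 at 0.129 and Pdgfc at 0.130, where the median gene differed by 0.383. Each of the 5 had its ethanol libraries above its control libraries, which a likeness to Nmnat3 brings with it. Alas2, which opens heme synthesis in the erythroid lineage, was at 26.0, 22.5 and 25.6 CPM with ethanol and 17.0, 16.3 and 16.4 CPM in controls. Ptgr1, prostaglandin reductase 1, uses NADPH, and it was at 32.4, 24.3 and 27.3 CPM with ethanol and 20.3, 19.1 and 20.6 CPM in controls.

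Because Nmnat3 is also known from red blood cells, the erythroid markers are given beside it. The 7 erythroid markers in the table summed to 159, 133 and 157 TPM with ethanol and 101, 56.8 and 90.1 TPM in controls, and of 6 tested 5 were higher at an unadjusted p under 0.05. These 5 were the globin genes Hba-a1, Hba-a2, Hbb-bs and Hbb-bt, of which the alpha pair are near-identical copies, and Alas2. Hbb-bt was at 7.53, 5.65 and 6.38 CPM with ethanol and 4.62, 2.30 and 3.60 CPM in controls, a log2 fold change of 0.89 ± 0.21 (SE; adjusted p = 0.153, edgeR). Slc4a1, the anion exchanger of the red cell membrane, had 0 reads in each ethanol library and 0, 5 and 6 in controls. The part of erythroid RNA in the difference of Nmnat3 was not tested.

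Values of other marker lists are given next, with 0 genes past an adjusted p of 0.05. The 6 Sertoli cell markers, all above 0, summed to 548 to 612 TPM with ethanol and 436 to 484 TPM in controls. At an unadjusted p under 0.05, 3 of the 6 were higher and 0 lower, beside 7.45% and 5.89% of all tested genes. Cst9, a cystatin secreted by Sertoli cells, had a log2 fold change of 0.32 ± 0.07 (SE; adjusted p = 0.145, edgeR). Wt1 was at 0.22 ± 0.08 (SE; adjusted p = 0.273, edgeR). All 6 spermatocyte markers and all 4 round spermatid markers were below 0, with medians of -0.13 and -0.18. The summed TPM of spermatocyte markers overlapped, at 6070 to 6420 with ethanol and 5970 to 6170 in controls. That sum was mostly Ldhc, at 5280 to 5670 TPM and a log2 fold change of -0.02, and says little of the other members. The round spermatid sums overlapped too, at 788 to 864 TPM with ethanol and 836 to 923 TPM in controls. At an unadjusted p under 0.05, 3 of 6 spermatocyte and 2 of 4 round spermatid markers were lower and 0 higher. Piwil1 and Sycp1 of spermatocytes were at -0.20 and -0.16 (adjusted p = 0.187 and 0.261, edgeR). Tex21 and Spaca1 of round spermatids were at -0.20 each (adjusted p = 0.222 and 0.331, edgeR). Each had its ethanol libraries below its control libraries in CPM, as had 9.01% of all tested genes. Medians were 0.12 for spermatogonia, -0.05 for elongating spermatids, 0.10 for peritubular myoid cells, 0.17 for macrophages, 0.16 for endothelial cells and -0.04 for Leydig cells. Summed TPM was apart for spermatogonia, at 86.9 to 92.2 with ethanol and 75.8 to 83.1 in controls. It was apart for peritubular myoid cells too, at 59.5 to 62.7 with ethanol and 50.7 to 56.3 in controls. It overlapped for elongating spermatids, macrophages, endothelial cells and Leydig cells. Uchl1 of spermatogonia was at 0.12 and Acta2 of myoid cells at 0.11 (adjusted p = 0.599 and 0.522, edgeR). Within some lists, members differed in direction. Of the Leydig cell genes, Cyp11a1 and Cyp17a1, which act early in testosterone synthesis, had log2 fold changes of -1.3 and -0.67 (adjusted p = 0.127 and 0.204, edgeR), beside 0.12 for Star, 0.15 for Hsd3b1 and -0.04 each for Insl3 and Lhcgr. Cyp11a1 passed with DESeq2 (adjusted p = 0.0385). Cyp17a1 overlapped between the diets, with ethanol library 2 at 127 CPM and control library 3 at 124 CPM. Without 1 library, Cyp17a1 ran from -0.48, without ethanol library 3, to -1.05, without ethanol library 2 (adjusted p = 0.311 and 0.0262, edgeR). It did not pass with DESeq2 (adjusted p = 0.359). Of the macrophage genes, Mrc1 was at 0.30 and C1qa at -0.44, and of the endothelial genes Cdh5 was at 0.44 and Emcn at -0.52 (adjusted p = 0.153, 0.175, 0.238 and 0.364, edgeR). Adipocyte markers had a median of 1.5, which falls between unlike members. Adipoq was at 0.07 and Plin1 at 0.36, while Fabp4 at 2.64 and Cfd at 3.69 were led by ethanol library 1. The part of these cell types in the values of Nmnat3, Nampt and Nmrk1 was not tested.

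**Figure D5:**
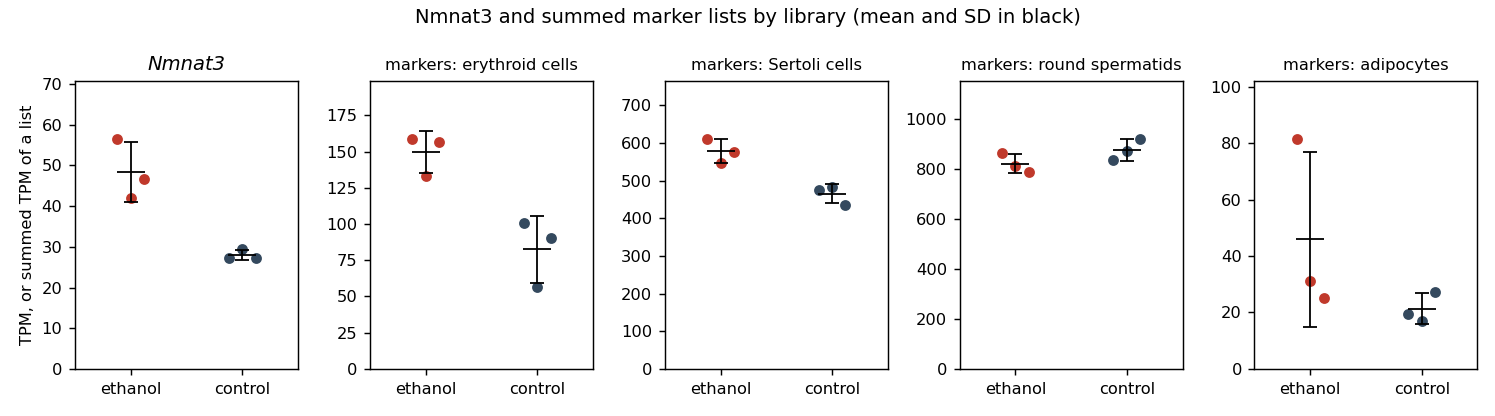
TPM of Nmnat3 and summed TPM of 4 marker lists (vertical axes, from 0) in the 3 ethanol-fed and 3 control-fed libraries (points), with the mean and SD in black. Among the lists shown, the diets are apart for the erythroid and Sertoli cell lists, as for Nmnat3. They overlap for round spermatids and for adipocytes, where ethanol library 1 is at 81.6 TPM. The sums of spermatogonia and peritubular myoid markers, not shown, were apart as well.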

How the data were processed

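Libraries were stranded and depleted of ribosomal RNA, per the labels' protocols. Reads were mapped to the mm10 genome, with HISAT2 among the tools named, per the submitters' processing notes. No source used here names the counting tool, the strand setting or the gene annotation. The deposited read counts per gene were whole numbers without normalization, per the file headers. The same table gives FPKM and TPM of each library, both calculated by the authors. All 6 libraries were used, and 0 sample columns lay outside them.

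Counts of 25073 genes kept by filterByExpr were scaled by TMM and tested, ethanol over control, with edgeR 4.0.16 in R 4.3.3 by the quasi-likelihood F-test, Benjamini-Hochberg adjusted over all of them. The SE is the size of the log2 fold change over the square root of F. CPM is TMM-scaled. TPM is used where genes are compared. The procedure was tested on simulated data. Alternatives used limma 3.58.1 and DESeq2 1.42.0, other scalings and filters, log2(TPM + 1), log2(TPM + 0.1) and log2(FPKM + 1), a replicate block, and each library left out. Implied lengths used counts of at least 20 per library and exact two-sided permutation tests.

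The enzymes, the 6 pathway lists, the 11 marker lists and the naming rule were chosen with earlier results of these data known. The rule took all 10 enzymes, per pathway list the up to 4 genes of smallest unadjusted p under 0.05 or else the most abundant, the same with up to 2 per marker list, and the 5 genes most like Nmnat3. Other genes were named after their values were seen, among them Cd38 and Sarm1, the untested members of the tryptophan list, Nmrk2 and Slc4a1. No pair of libraries agreed within sampling noise: the smallest chi-square per gene between any 2 was 7.66. Coordinates are 1-based from RefSeq on GRCm38.p6, which is mm10.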

Additional observations from a re-analysis of the deposited data

How the results depend on the processing

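Over all genes, 0 passed with the reported fit, 3343 were at an unadjusted p under 0.05, and the count past an adjusted p of 0.05 was 2 with upper-quartile factors, 2 with at least 1 CPM in 3 libraries, 5 with limma-voom and 330 with DESeq2, of which 203 were higher and 127 lower. It was 0 to 3 without 1 library, and 5 at a threshold of 0.1. Of the 9 tested NAD enzyme genes, 1, Nmnat3, passed with those 4 settings, with the replicate block and at 0.1, and 0 to 1 without 1 library.

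Nmnat3 was higher with ethanol in every setting run. It passed with upper-quartile factors (0.72, adjusted p = 0.0365), at least 1 CPM in 3 libraries (0.73, 0.0435), limma-voom (0.71, 0.0439) and DESeq2 (0.72, 7.01e-09), and at 0.1 (0.72). It did not with RLE factors (0.0543), total counts alone (0.0647), no filter (0.173), or on log2(TPM + 1) and log2(TPM + 0.1) (0.126 each) and log2(FPKM + 1) (0.152). Without 1 library it lay between 0.64 and 0.81, with adjusted p from 0.0262 to 0.365. The cause was not tested.

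With the replicate block, 15 genes passed over all genes and Nmnat3 stood at 0.72 (adjusted p = 0.0269). Cyp11a1 passed as well, at -1.34 (adjusted p = 0.00126). Same-numbered libraries had correlations of deviations of -0.166, 0.0135 and 0.439. Pairs of unlike number reached 0.478, for ethanol library 1 with control library 2, and -0.475, for ethanol library 3 with control library 2. These few values cannot settle whether the numbers mark a pairing.

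Over 844 values of 47 genes examined, 8 changed sign: Nnt without control library 3 (-0.02), Nadsyn1 on log2(TPM + 1) and log2(TPM + 0.1) (0.01 each) and without ethanol library 1 (0.03) or control library 1 (0.01), Nmnat2 without ethanol library 1 (0.08), and Prm2 without ethanol library 2 or control library 3 (0.01 each). Without 1 library, values lay between -0.02 and 0.07 for Nnt, -0.13 and 0.03 for Nadsyn1, -0.40 and 0.08 for Nmnat2 and -0.19 and 0.01 for Prm2. Nampt stayed between 0.20 and 0.29 and Nmrk1 between 0.34 and 0.57 in the settings run. Depth limits Qprt and Nmnat2, at a few reads and at 27 to 67 reads per library.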
